A study of Homo sapiens with 16 samples.

Results

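The genes described here are 10 genes of intestinal epithelial differentiation, CEACAM1, CEACAM5, CEACAM6, CDX1, CDX2, VIL1, KRT8, KRT18, KRT19 and KRT20, chosen by name from the 20612 genes of the deposited expression table. All 10 were found in the table. RNA was sequenced from HCT116, a human colorectal cancer cell line, in cells without p53 (p53-/-) and in cells with p53 (p53+/+). Both were exposed for 8 hours to Nutlin-3A and Entinostat together (the combination), to 5 µM Nutlin-3A, to 2.5 µM Entinostat or to the vehicle DMSO. Nutlin-3A blocks the interaction of p53 with its ubiquitin ligase MDM2, and Entinostat inhibits class I histone deacetylases. The 16 libraries fall into 8 groups of 2 replicates. The doses within the combination are not stated separately, and the labels do not say whether the p53-/- cells come from a single clone. Nor do they say that replicates were separate cultures, so p-values here measure only the spread between samples, and that spread may be technical.

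The caudal-type homeobox factors CDX1 and CDX2 set and maintain intestinal identity, and CDX2 is widely used to mark tumours of colorectal origin. Keratins form filaments from pairs of a type II and a type I chain. KRT8 is the type II chain of simple epithelia, KRT18 and KRT19 are its type I partners, and KRT20 is a type I keratin of differentiated gut surface cells. VIL1 encodes villin, which bundles actin in microvilli. CEACAM1 is a transmembrane cell adhesion receptor, while CEACAM5 (carcinoembryonic antigen) and CEACAM6 are held in the membrane by a lipid anchor and are abundant in the differentiated colon surface.

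Values are RPKM, reads scaled to gene length and library size, and alignments per library ran from 45902800 to 55507300. A gene was tested when its mean over the 16 libraries was at least 0.5 RPKM, which 12466 genes reached. Changes are given as log2 changes of RPKM + 0.5 with their standard errors, and folds are ratios of mean RPKM. Calls were made by limma at an adjusted p under 0.05, with the adjustment over all 12466 genes. MDM2, a direct p53 target, averaged 20.2 RPKM under Nutlin-3A and 14.7 under DMSO in p53-/- cells, and 298 under Nutlin-3A and 20.2 under DMSO in p53+/+ cells. The epithelial adhesion genes EPCAM (126 to 191 RPKM) and CDH1 (12.5 to 27.8 RPKM) were present in every library. CDH17, an intestinal cadherin, did not exceed 0.0418 RPKM.

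The members separated widely by level. KRT8, KRT19 and KRT18 averaged 1107, 769 and 573 RPKM over the 16 libraries, and 49, 74 and 102 genes of the table had a higher mean. CDX2 averaged 5.13 RPKM, with 7742 genes above it. CEACAM1 (0.549 RPKM) and KRT20 (0.516 RPKM) lay just above the minimum mean for testing. CEACAM5, CEACAM6, CDX1 and VIL1 were below it, at means of 0.00869, 0.0048, 0.00275 and 0.0111 RPKM, so 6 of the 10 genes were tested. CEACAM1 passed only through the p53+/+ groups that received Nutlin-3A, since its mean without them was 0.114 RPKM. KRT20 passed only through the p53+/+ libraries, with a mean of 0.368 RPKM over the p53-/- libraries, and its mean without the p53+/+ combination pair was 0.47 RPKM. A gene that passes only where it is high had to differ, so the calls of CEACAM1 and KRT20 below are descriptions and support nothing. In bulk samples, fewer cells of a type and less RNA per cell cannot be told apart.

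**Figure D1:**
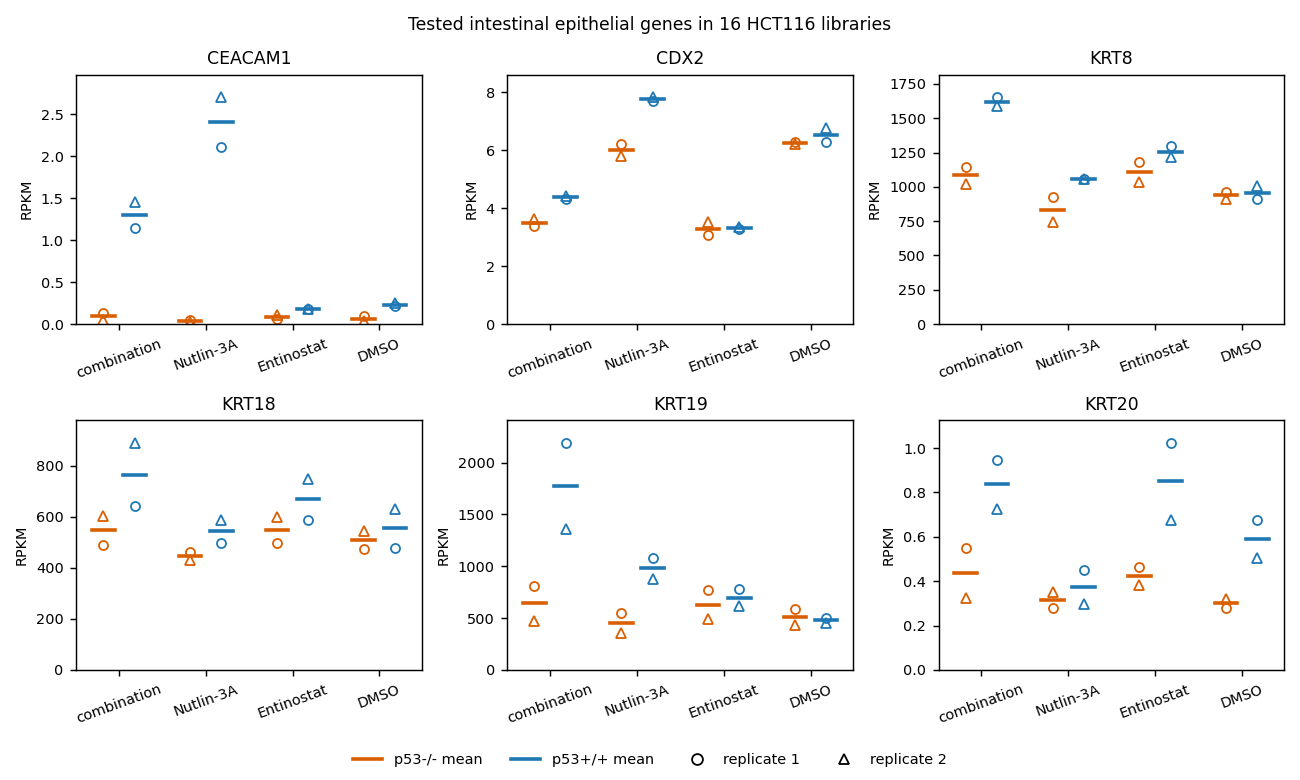
RPKM of the 6 tested genes on linear axes starting at 0, showing each library as an open symbol (circle, replicate 1; triangle, replicate 2) and the mean of 2 replicates as a line, p53-/- groups in orange and p53+/+ groups in blue. CEACAM1 reached 1.14 to 2.70 RPKM in the 4 p53+/+ libraries with Nutlin-3A and at most 0.253 elsewhere, and CDX2 stayed at or below 4.44 RPKM in the 8 libraries with Entinostat.

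Of the 6 tested members, CEACAM1 had the largest called change for Nutlin-3A against DMSO in p53+/+ cells. Under the combination KRT19 changed more there (log2 change 1.86). The p53-/- libraries of CEACAM1 held 0.131 and 0.0542 RPKM under the combination, 0.0426 and 0.0220 under Nutlin-3A, 0.0660 and 0.112 under Entinostat, and 0.0936 and 0.0343 under DMSO. Its p53+/+ libraries held 1.14 and 1.45 RPKM under the combination, 2.11 and 2.70 under Nutlin-3A, 0.174 and 0.174 under Entinostat, and 0.210 and 0.253 under DMSO. The 4 p53+/+ libraries with Nutlin-3A were thus above all 12 others, and the Nutlin-3A pair was above the combination pair. In p53+/+ cells CEACAM1 was 10.4-fold higher under Nutlin-3A than under DMSO (log2 change 1.99 ± 0.15, adjusted p = 5.7e-06 by limma). Under the combination it was 5.61-fold higher than under DMSO (1.29 ± 0.15, adjusted p = 7e-05). In p53-/- cells the Nutlin-3A and DMSO libraries overlapped, with a log2 change of -0.08 (95% interval -0.4 to 0.24).

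The difference between genotypes was itself tested for CEACAM1. The Nutlin-3A response was smaller in p53-/- cells than in p53+/+ cells by a log2 difference of -2.07 ± 0.21 (adjusted p = 0.00019 by limma). The combination response differed by -1.22 ± 0.21 (adjusted p = 0.0095). Under Nutlin-3A, CEACAM1 averaged 0.0323 ± 0.015 RPKM in p53-/- cells and 2.41 ± 0.42 in p53+/+ cells (SD, n = 2 each), a log2 change of -2.44 ± 0.15. Under DMSO the means were 0.0639 ± 0.042 RPKM in p53-/- cells and 0.231 ± 0.03 in p53+/+ cells, and the libraries did not overlap, but the log2 change of -0.38 was not called (adjusted p = 0.21).

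CEACAM1 was lower in p53+/+ cells when Entinostat was given with Nutlin-3A. The combination averaged 1.30 ± 0.22 RPKM and Nutlin-3A alone 2.41 ± 0.42 (SD, n = 2 each), a log2 change of -0.69 ± 0.15 (adjusted p = 0.0051 by limma). This call was lost without combination replicate 1 (-0.57, adjusted p = 0.059) and with a pseudocount of 0.1 (-0.84, adjusted p = 0.052). Entinostat alone averaged 0.174 RPKM and DMSO 0.231 ± 0.03 (SD, n = 2) in p53+/+ cells, and the log2 change of -0.12 was not called (adjusted p = 0.6).

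CEACAM1 shares sequence with other CEACAM genes and reads can be split between near-identical copies, so its values and those of CEACAM5 and CEACAM6 are uncertain to that extent. LIPE-AS1 overlaps CEACAM1 in the RefSeq annotation of GRCh38, and the sources used here do not say if counting used the strand. LIPE-AS1 stood between 0.0408 and 0.314 RPKM, averaging 0.162 under Nutlin-3A and 0.119 under DMSO in p53+/+ cells. The summed RPKM of 11 marker genes of other cell types also moved with treatment in p53+/+ cells, with 23.4 to 28.9 under the combination, 18.8 to 20.2 under Nutlin-3A, 12.4 to 12.7 under Entinostat and 7.82 to 8.92 under DMSO. The p53-/- sums were 11.9 to 13.3 under the combination, 5.89 to 7.28 under Nutlin-3A, 11.2 to 12.6 under Entinostat and 6.85 to 8.04 under DMSO. Most of it came from CD68, COL1A1 and ACTA2. The other 8 markers were below the minimum mean for testing, and none exceeded 0.238 RPKM in any library. Of these VWF reached 0.238, CD14 0.197 and PDGFRB 0.134 RPKM, while PTPRC, CD3E, PECAM1, CDH5 and COL1A2 had a median of 0 and did not exceed 0.0537 RPKM.

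CEACAM5 and CEACAM6 were listed above 0 only in libraries with Entinostat. CEACAM5 was above 0 in 6 of the 8 libraries with Entinostat and in 0 of the 8 without. It had 0.0473 and 0.0112 RPKM under the combination, 0 and 0 under Nutlin-3A, 0.0475 and 0.0105 under Entinostat, and 0 and 0 under DMSO in p53+/+ cells. The p53-/- libraries had 0.0112 and 0 RPKM under the combination and 0.0113 and 0 under Entinostat, and was listed at 0 in the other libraries. CEACAM6 was above 0 in 4 of 8 libraries with Entinostat and in 0 of 8 without, with a highest value of 0.0321 RPKM. RPKM times alignments took whole-number multiples of a smallest step to within 0.017. CEACAM5 held 12 such steps and CEACAM6 5 over all libraries with Entinostat. These are very small amounts. No fold or test is given for them, and levels below the smallest step were not detectable at this depth.

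The proximal promoters of these 3 genes and of CDX2 are shown because the CEACAM genes are close relatives that differed in which libraries held them, and because CDX2 both fell with Entinostat and is a DNA-binding factor. The sequences are from RefSeq on GRCh38.p14 and cover the 250 bases before each annotated start, whereas the reads were aligned to hg19. CEACAM1 lies at chr19:42528482-42528731 (minus strand), CEACAM5 at chr19:41708376-41708625 (plus strand), CEACAM6 at chr19:41755280-41755529 (plus strand) and CDX2 at chr13:27969316-27969565 (minus strand). Capitals mark matches on either strand to CACGTG (an E-box), GGGCGG (a GC box), TTTAT (the core that CDX factors bind) or the p53 half-site.
CEACAM1: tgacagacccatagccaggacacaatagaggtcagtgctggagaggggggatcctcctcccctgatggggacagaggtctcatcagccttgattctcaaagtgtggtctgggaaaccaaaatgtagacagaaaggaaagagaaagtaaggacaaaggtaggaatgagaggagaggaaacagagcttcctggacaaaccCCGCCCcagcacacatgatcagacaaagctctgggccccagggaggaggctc
CEACAM5: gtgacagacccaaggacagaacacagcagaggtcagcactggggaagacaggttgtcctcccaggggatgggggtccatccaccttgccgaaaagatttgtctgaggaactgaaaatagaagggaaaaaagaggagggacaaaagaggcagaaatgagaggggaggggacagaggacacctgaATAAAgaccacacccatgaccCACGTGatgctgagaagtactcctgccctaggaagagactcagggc
CEACAM6: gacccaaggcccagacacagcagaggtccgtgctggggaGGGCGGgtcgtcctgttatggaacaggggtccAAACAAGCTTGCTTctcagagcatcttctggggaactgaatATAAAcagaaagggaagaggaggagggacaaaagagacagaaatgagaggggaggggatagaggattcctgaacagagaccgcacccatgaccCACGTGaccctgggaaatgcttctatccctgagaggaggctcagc
CDX2: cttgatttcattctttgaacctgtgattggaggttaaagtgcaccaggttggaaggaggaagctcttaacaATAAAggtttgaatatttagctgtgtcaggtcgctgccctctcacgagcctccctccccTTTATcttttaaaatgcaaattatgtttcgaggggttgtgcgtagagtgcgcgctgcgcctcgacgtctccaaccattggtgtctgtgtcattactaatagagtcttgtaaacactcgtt

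All 4 promoters were read 5′ to 3′ along the gene's own strand, with positions counted back from the start. CEACAM5 and CEACAM6 were 74.6% identical over these windows, CEACAM1 and CEACAM6 68.2%, and CEACAM1 and CEACAM5 66.2%, while the other pairs, among these and the KRT8 and KRT20 promoters, reached 43.7% to 49.3%. CACGTG stood at -46 in CEACAM5 and at -45 in CEACAM6 and was not in the CEACAM1 window, and 6.34% of 35116 promoters of this length held it. GGGCGG was in CEACAM1 and CEACAM6 and in 42.6% of promoters. TTTAT was in CEACAM5, CEACAM6 and CDX2 and in 32.7% of promoters. The p53 half-site matched at overlapping positions in CEACAM6, and 5.57% of promoters held a match. It had no match in the windows of CEACAM1, CEACAM5 and CDX2. Among the windows not printed here, KRT8 held a half-site match at -136 and KRT20 one at -23. KRT20 also held 3 matches to TTTAT.

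CDX2 fell with Entinostat in both genotypes. The CDX2 values in p53-/- cells were 3.4 and 3.61 RPKM under the combination, 6.23 and 5.80 under Nutlin-3A, 3.06 and 3.51 under Entinostat, and 6.29 and 6.20 under DMSO. The corresponding p53+/+ values were 4.33 and 4.44 RPKM under the combination, 7.71 and 7.83 under Nutlin-3A, 3.27 and 3.34 under Entinostat, and 6.27 and 6.75 under DMSO. Every library with Entinostat was below every library without it. Entinostat lowered CDX2 by a log2 change of -0.84 ± 0.092 in p53-/- cells (adjusted p = 0.00043 by limma). In p53+/+ cells the change was -0.88 ± 0.092 (adjusted p = 0.00036). The difference between these responses was 0.04 (95% interval -0.24 to 0.33) and was not called (adjusted p = 1).

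The combination lowered CDX2 too, by a log2 change of -0.75 ± 0.092 in p53-/- cells (adjusted p = 0.00043 by limma) and of -0.52 ± 0.092 in p53+/+ cells (adjusted p = 0.00078). Against Nutlin-3A alone the combination was lower by -0.70 in p53-/- cells (adjusted p = 0.00091) and by -0.76 in p53+/+ cells (adjusted p = 0.00039). In p53+/+ cells the combination stood above Entinostat alone, at a mean of 4.38 ± 0.075 against 3.30 ± 0.054 RPKM (SD, n = 2 each), a log2 change of 0.36 (adjusted p = 0.021). This smaller difference lost its call when any 1 of the 4 libraries was left out, with adjusted p from 0.056 to 0.099. Nutlin-3A alone gave 7.77 ± 0.08 RPKM and DMSO 6.51 ± 0.34 in p53+/+ cells (SD, n = 2 each), a log2 change of 0.24 that was not called (adjusted p = 0.096), but was called once replicate was fitted as a block (adjusted p = 0.039).

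The order of CDX2 levels in p53+/+ cells ran from Entinostat through the combination and DMSO to Nutlin-3A, with no overlap between neighbouring groups. In p53-/- cells the Entinostat and combination libraries overlapped, as did those of Nutlin-3A and DMSO. CDX2 was lower in p53-/- than in p53+/+ cells under Nutlin-3A (log2 change -0.35, adjusted p = 0.012 by limma) and under the combination (-0.29, adjusted p = 0.029). The call under the combination was lost without any 1 of its 4 libraries (adjusted p 0.068 to 0.13). That under Nutlin-3A was lost without p53+/+ replicate 1 (adjusted p = 0.052), p53+/+ replicate 2 (0.06) or p53-/- replicate 2 (0.082). The difference in Nutlin-3A response between genotypes was -0.29 and was not called (adjusted p = 0.24). Under DMSO the log2 change was -0.05 and the libraries overlapped.

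CDX1, the paralogue of CDX2, was above 0 in 1 library with Entinostat and in 1 without, at 0.0224 and 0.0217 RPKM. VIL1 was above 0 in 5 of 8 libraries with Entinostat and in 4 of 8 without, and its highest value, 0.0435 RPKM, was in a p53+/+ DMSO library. Neither gene separated the libraries with Entinostat from those without. By genotype, VIL1 averaged 0.00722 RPKM under the combination, 0.00726 under Nutlin-3A, 0 under Entinostat and 0 under DMSO in p53-/- cells. In p53+/+ cells the means were 0.0225, 0.00814, 0.0144 and 0.0294 RPKM. These are very small amounts and were not tested. USP37 overlaps VIL1 in the annotation and stood at 2.29 to 6.43 RPKM.

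KRT19 rose with Nutlin-3A in p53+/+ cells and reached its highest values there under the combination. Its p53-/- libraries had 810.2 and 473 RPKM under the combination, 550.4 and 352 under Nutlin-3A, 768 and 491 under Entinostat, and 584 and 434 under DMSO. The p53+/+ libraries had 2188 and 1356 RPKM under the combination, 1079 and 881 under Nutlin-3A, 777 and 614 under Entinostat, and 503 and 450.0 under DMSO. No treatment groups overlapped within p53+/+ cells, whereas within p53-/- cells every drug group overlapped DMSO. The combination was 3.72-fold higher than DMSO in p53+/+ cells (log2 change 1.86 ± 0.32, adjusted p = 0.00067 by limma). Nutlin-3A alone was 2.06-fold higher than DMSO there (1.03 ± 0.32, adjusted p = 0.043), a call that was lost when any 1 of the 4 libraries was left out (adjusted p 0.089 to 0.22) and with no filter on mean RPKM (0.11). In p53-/- cells the Nutlin-3A change was -0.19 (95% interval -0.89 to 0.5), was not called, and turned positive without DMSO replicate 1 (0.02) or Nutlin-3A replicate 2 (0.13).

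In every group replicate 1 of KRT19 exceeded replicate 2, by a median of 0.54 on the log2 scale, so the spread between replicates was wide. With the replicate number as a block, Entinostat alone also raised KRT19 in p53+/+ cells (log2 change 0.54, adjusted p = 0.0038 by limma, against 0.23 without the block). The smaller Nutlin-3A response in p53-/- than in p53+/+ cells (-1.23) had an adjusted p of 0.00043 with the block and of 0.14 without it. That of the combination (-1.56) had 0.00015 with the block and 0.064 without it. Against Nutlin-3A alone the combination was higher by 0.49 in p53-/- cells (adjusted p = 0.0073 with the block, 0.29 without) and by 0.82 in p53+/+ cells (0.00019 with the block, 0.063 without). Without combination replicate 2, the last change was 1.17 (adjusted p = 0.026) and the genotype difference in combination response -1.90 (adjusted p = 0.021), both without the block.

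KRT19 was lower in p53-/- than in p53+/+ cells under Nutlin-3A, at 451 ± 140.0 against 980.1 ± 140.2 RPKM (SD, n = 2 each; log2 change -1.15, adjusted p = 0.015 by limma). The call was lost without p53-/- replicate 2 (-0.82, adjusted p = 0.14) or p53+/+ replicate 1 (adjusted p = 0.1). Under the combination KRT19 averaged 642 ± 238 RPKM in p53-/- cells and 1772 ± 588 in p53+/+ cells (log2 change -1.48, adjusted p = 0.0041). The combination exceeded Entinostat alone by 1.32 in p53+/+ cells (adjusted p = 0.016), which was lost without combination replicate 1 (0.97, adjusted p = 0.16) or Entinostat replicate 2 (1.15, adjusted p = 0.12). KRT15, a basal-type keratin and the neighbour of KRT19 on chromosome 17, averaged 16.4 ± 1.3 RPKM under Nutlin-3A and 4.37 ± 0.026 under DMSO in p53+/+ cells (log2 change 1.79, adjusted p = 8.5e-05).

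KRT8 rose in p53+/+ cells under the combination. Its values in p53-/- cells were 1144 and 1022 RPKM under the combination, 923 and 740.1 under Nutlin-3A, 1181 and 1035 under Entinostat, and 966 and 913 under DMSO. Its values in p53+/+ cells were 1653 and 1589.9 RPKM under the combination, 1055 and 1060.2 under Nutlin-3A, 1295 and 1214 under Entinostat, and 913 and 1002 under DMSO. The p53+/+ combination libraries were the highest of all 16 and stood apart from the rest. The combination was 1.69-fold higher than DMSO in p53+/+ cells (log2 change 0.76 ± 0.12, adjusted p = 0.00042 by limma). Entinostat alone was 1.31-fold higher than DMSO (0.39 ± 0.12, adjusted p = 0.032), which was lost without any 1 of the 4 libraries (adjusted p 0.063 to 0.19) and with no filter on mean RPKM (0.078).

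Against Nutlin-3A alone, the combination raised KRT8 by a log2 change of 0.39 in p53-/- cells (adjusted p = 0.037 by limma) and of 0.62 in p53+/+ cells (adjusted p = 0.0032). The p53-/- call was lost without combination replicate 1 (0.31, adjusted p = 0.27), without Nutlin-3A replicate 2 (0.23, adjusted p = 0.25), with no filter (0.089) and under quantile normalization (0.089). KRT8 was lower in p53-/- than in p53+/+ cells under Nutlin-3A (-0.36, adjusted p = 0.039) and under the combination (-0.58, adjusted p = 0.0032). Quantile normalization ended both calls (-0.16, adjusted p = 0.33, and -0.25, adjusted p = 0.11). The call under Nutlin-3A was also lost with no filter (0.097), without p53+/+ replicate 1 (0.13), p53+/+ replicate 2 (0.13) or p53-/- replicate 2 (0.31). The replicate block gave KRT8 under Entinostat against DMSO in p53+/+ cells an adjusted p of 0.0025 by limma. With the block, 3 more KRT8 differences were called. They were Entinostat against DMSO in p53-/- cells (0.24, adjusted p = 0.036), the combination against Entinostat in p53+/+ cells (0.37, adjusted p = 0.0052, and 0.041 under median of ratios scaling without the block) and the genotype difference in combination response (-0.56, adjusted p = 0.0063).

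KRT18, the usual partner of KRT8, was not called in any of the 17 comparisons without the block. Among p53-/- libraries KRT18 had 490.0 and 605 RPKM under the combination, 463 and 429.7 under Nutlin-3A, 498 and 599 under Entinostat, and 473 and 545 under DMSO. Among p53+/+ libraries it had 642 and 890.1 RPKM under the combination, 499 and 589 under Nutlin-3A, 588 and 749.6 under Entinostat, and 478 and 632 under DMSO. Replicate 2 was the higher in 7 of 8 groups, opposite to KRT19, and the combination libraries were above the DMSO libraries in p53+/+ cells by a small gap. With the block, KRT18 was higher under the combination than under DMSO in p53+/+ cells (log2 change 0.46, adjusted p = 0.0016 by limma, and 0.066 without the block). Without combination replicate 1 this change was 0.70 (adjusted p = 0.027) and without DMSO replicate 2 it was 0.66 (adjusted p = 0.043). The block also called Entinostat against DMSO in p53+/+ cells (0.27, adjusted p = 0.045).

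Comparing the genotypes, the block called KRT18 lower in p53-/- than in p53+/+ cells under Nutlin-3A (log2 change -0.28, adjusted p = 0.036 by limma) and under the combination (-0.47, adjusted p = 0.0018). It also called KRT18 higher under the combination than under Nutlin-3A alone, by 0.29 in p53-/- cells (adjusted p = 0.038) and by 0.48 in p53+/+ cells (adjusted p = 0.0019). Without p53+/+ combination replicate 1, and with no block, the genotype change under the combination was -0.71 (adjusted p = 0.038) and the change against Nutlin-3A 0.71 (adjusted p = 0.047). KRT8 and KRT18 overlap in the annotation and both have many processed pseudogenes, so their values are uncertain to the extent that reads were shared. The pseudogenes KRT18P55 and KRT8P41 did not exceed 0.214 and 0.0217 RPKM.

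The ratio of KRT8 to KRT18 stayed within 1.59 to 2.57 over all 16 libraries, and that of KRT19 to KRT18 within 0.712 to 3.41. Without p53, the KRT19 to KRT18 ratio was 1.65 and 0.781 under the combination, 1.19 and 0.82 under Nutlin-3A, 1.54 and 0.819 under Entinostat, and 1.24 and 0.797 under DMSO. With p53 it was 3.41 and 1.52 under the combination, 2.16 and 1.49 under Nutlin-3A, 1.32 and 0.819 under Entinostat, and 1.05 and 0.712 under DMSO. Within each replicate number, the p53+/+ combination and Nutlin-3A libraries had the highest ratios of that number. The ratio was higher in replicate 1 than in replicate 2 in all 8 groups.

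**Figure D2:**
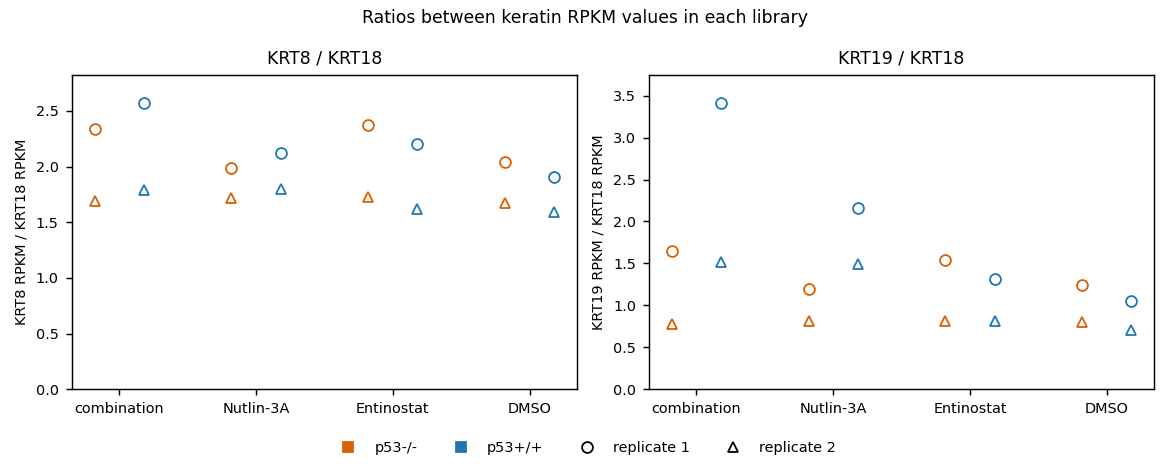
KRT8 to KRT18 (left) and KRT19 to KRT18 (right) ratios of RPKM in each library on axes that start at 0, with p53-/- groups in orange, p53+/+ groups in blue, circles for replicate 1 and triangles for replicate 2. The KRT19 to KRT18 ratio reached 3.41 and 1.52 in the p53+/+ combination libraries, and every circle lies above the triangle of its group.

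KRT20 was low throughout and its changes were small. The p53-/- libraries held 0.548 and 0.325 RPKM under the combination, 0.277 and 0.352 under Nutlin-3A, 0.462 and 0.382 under Entinostat, and 0.281 and 0.320 under DMSO. The p53+/+ libraries held 0.948 and 0.725 RPKM under the combination, 0.449 and 0.296 under Nutlin-3A, 1.02 and 0.678 under Entinostat, and 0.676 and 0.506 under DMSO. In p53+/+ cells the Nutlin-3A pair was the lowest, below the DMSO pair, and the Entinostat and combination pairs overlapped. The combination was 2.24-fold higher than Nutlin-3A alone in p53+/+ cells (log2 change 0.62 ± 0.18, adjusted p = 0.02 by limma). The p53+/+ combination pair is one of those through which KRT20 passed the filter, so that call is a description. It was lost without combination replicate 1 (0.49, adjusted p = 0.15), without Nutlin-3A replicate 2 (0.49, adjusted p = 0.12) and under quantile normalization (0.29, adjusted p = 0.22). Against DMSO in p53+/+ cells, no drug changed KRT20 past the threshold, with log2 changes of 0.29 for the combination, -0.32 for Nutlin-3A and 0.30 for Entinostat (adjusted p 0.18, 0.25 and 0.23).

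KRT20 was lower in p53-/- than in p53+/+ cells under the combination (log2 change -0.52, adjusted p = 0.038 by limma), again a description, since KRT20 passed the filter through the p53+/+ libraries. The call was lost without p53+/+ replicate 1 (-0.40, adjusted p = 0.23), without p53-/- replicate 2 (-0.35, adjusted p = 0.25) and under quantile normalization (-0.37, adjusted p = 0.12). Under Entinostat the change was -0.54, with an adjusted p of 0.029 with the replicate block and of 0.14 without it. Under DMSO KRT20 averaged 0.301 ± 0.028 RPKM in p53-/- cells and 0.591 ± 0.12 in p53+/+ cells (SD, n = 2 each; -0.44, adjusted p = 0.22).

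**Figure D3:**
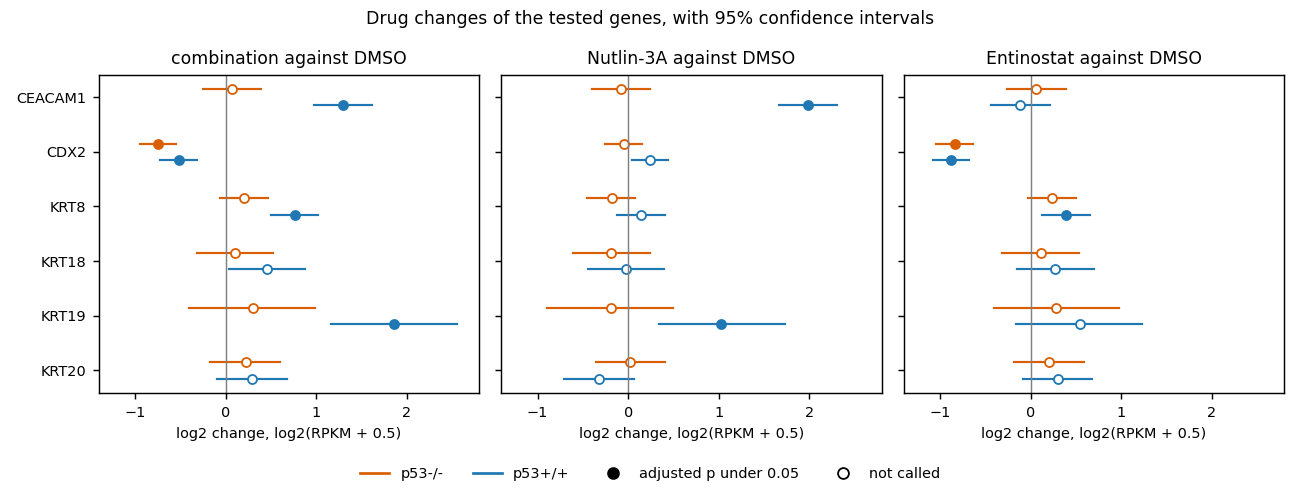
Log2 changes of RPKM + 0.5 against DMSO for the 6 tested genes under the combination, Nutlin-3A and Entinostat, with 95% confidence intervals, p53-/- cells in orange above p53+/+ cells in blue, and filled symbols for an adjusted p under 0.05. CEACAM1 stands at 1.29 and 1.99 in p53+/+ cells under the combination and Nutlin-3A, and CDX2 at -0.84 and -0.88 in p53-/- and p53+/+ cells under Entinostat.

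Counted together, and as a description only because CEACAM1 and KRT20 passed the filter through the groups in which they were high, the tested members were called as follows in p53-/- cells against DMSO. Each share is that of all tested genes called in either direction by the same fit. Under the combination 1 of 6 was called, CDX2, beside 31.8% of all genes (1 beside 48.8% with the replicate block). Under Nutlin-3A limma called 0 of 6, and 0 at an unadjusted p under 0.05 or with the replicate block, where 0% of all genes were called. Under Entinostat 1 of 6 was called, again CDX2, beside 28.2% of all genes (2 beside 45.5% with the block). In p53+/+ cells 4 of 6 were called under the combination beside 50.0% of all genes (5 beside 64.0% with the block). There 2 were called under Nutlin-3A beside 17.4% (3 beside 31.5% with the block) and 2 under Entinostat beside 27.5% (4 beside 44.6% with the block).

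Between genotypes, limma called 0 of 6 members under DMSO, beside 4.69% of all genes, and 0 with the block, beside 13.1%, while CEACAM1 and KRT20 had an unadjusted p under 0.05. Under the combination 5 of 6 were called, all lower in p53-/- cells, beside 36.3% of all genes (6 beside 52.9% with the block). Under Nutlin-3A 4 were called lower beside 34.4% of all genes (5 called beside 50.6% with the block). Of these, the calls of KRT8, KRT19 and CDX2 depended on single libraries of either genotype, as given above. The CEACAM1 change ran from -2.59 to -2.3 with 1 library left out. Under Entinostat limma called 0, beside 3.76% of all genes, and with the block 1, KRT20, beside 13.2%. KRT20 also had the only unadjusted p under 0.05 there. The genotype difference in response was called for CEACAM1 under the combination (1 of 6 beside 5.78% of all genes, 3 beside 23.8% with the block) and under Nutlin-3A (1 of 6 beside 6.78%, 2 beside 17.1% with the block). For Entinostat it was called for 0 of 6 by limma, with 0 at an unadjusted p under 0.05, beside 0% of all genes, and for 0 with the block, beside 0.0321%.

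The combination differed in p53-/- cells from Nutlin-3A alone for 2 of 6 members, KRT8 and CDX2 (beside 23.4% of all genes, 4 members beside 41.2% with the block). From Entinostat alone it differed there for 0 of 6 by limma, with 0 at an unadjusted p under 0.05 and 0 with the block (0% of all genes in both fits). In p53+/+ cells it differed from Nutlin-3A alone for 4 of 6 (beside 34.7% of all genes, 6 beside 52.4% with the block) and from Entinostat alone for 3 of 6 (beside 14.8%, 4 beside 31.3% with the block). Comparisons that share a DMSO or single-drug group share its libraries.

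Over the 16 libraries KRT8 correlated with KRT19 (Pearson r = 0.86), KRT18 (0.72) and KRT20 (0.72), and CEACAM1 with KRT19 (0.72). CDX2 and KRT8 had r = -0.48. These values describe libraries that share their treatments and replicate numbers. Among 11509 genes with a mean of at least 1 RPKM, those most like CEACAM1 over the 16 libraries included ARAP1 (r = 0.986) and DGKA (0.981). Those most like CDX2 were ESRP2, a splicing factor of epithelial cells (0.977), SLC12A7 (0.976) and FAM83H (0.973). KRT19 was followed most closely by RHOC (0.989), NDRG1 (0.987) and HBE1 (0.968), and KRT8 by STOML1 (0.964), PLEKHM1 (0.959) and HYAL1 (0.952). The highest r for KRT20 was with USP43 (0.943) and for KRT18 with SKIV2L (0.901).

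Among the other genes of intestinal epithelium, 8 of 31 brush border and absorptive cell genes were tested. Of the 31, 22 were in the expression table, where SI, ANPEP and LGALS4 did not exceed 0.0969 RPKM. Of all tested genes, 31.8%, 0% and 28.2% were called against DMSO under the combination, Nutlin-3A and Entinostat in p53-/- cells, and 50.0%, 17.4% and 27.5% in p53+/+ cells. Of the 8 tested brush border genes, in p53-/- cells 4 were called higher and 1 lower than DMSO under the combination, 0 under Nutlin-3A, and 4 higher under Entinostat. In p53+/+ cells 7 were called higher under the combination, 1 higher under Nutlin-3A, and 3 higher and 1 lower under Entinostat. The median log2 change under the combination was 0.64 in p53-/- cells and 0.72 in p53+/+ cells, beside 0.03 and -0.03 over all genes. CA2, carbonic anhydrase 2, averaged 26.3 ± 12 RPKM under the combination and 8.99 ± 2.1 under DMSO in p53-/- cells (log2 change 1.44, adjusted p = 0.012), and 64.8 ± 23 under the combination and 16 ± 2.1 under DMSO in p53+/+ cells (1.94, adjusted p = 0.0012; SD, n = 2 each; limma). DPP4, a brush border peptidase, rose under Entinostat in p53-/- cells (0.802 ± 0.16 against 0.187 ± 0.02 RPKM under DMSO) and in p53+/+ cells (1.79 ± 0.015 against 0.871 ± 0.051 RPKM).

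EPS8L2, a relative of the actin-capping protein EPS8, had the same order of treatment means as CEACAM1 in p53+/+ cells. It averaged there 47.8 ± 3.6 RPKM under the combination, 90.9 ± 0.63 under Nutlin-3A, 16.7 ± 0.7 under Entinostat and 22.3 ± 1.5 under DMSO (SD, n = 2 each). Its Nutlin-3A response differed between p53-/- and p53+/+ cells by -2.10 ± 0.17 (adjusted p = 5.5e-05 by limma). PLS1, an actin bundler of microvilli, rose under Entinostat by 0.91 in p53-/- cells (adjusted p = 0.00046) and by 0.51 in p53+/+ cells (adjusted p = 0.0055).

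Of 19 adhesion and junction genes, 15 were tested. Among p53-/- comparisons 9 were called higher under the combination, 0 under Nutlin-3A and 7 higher under Entinostat, with 0 lower in each (31.8%, 0% and 28.2% of all genes were called in either direction). In p53+/+ cells 5 were higher and 3 lower under the combination, 2 lower under Nutlin-3A, and 4 higher and 1 lower under Entinostat (50.0%, 17.4% and 27.5% of all genes). Their median log2 change under the combination was 0.36 in p53-/- cells and -0.01 in p53+/+ cells. CDH1, which encodes E-cadherin, averaged 21.9 ± 3.4 RPKM under Entinostat and 12.6 ± 0.21 under DMSO in p53-/- cells, and 24.2 ± 1.4 under Entinostat and 13.8 ± 0.75 under DMSO in p53+/+ cells (SD, n = 2 each). The tight junction gene TJP3 rose under Entinostat by 1.04 in p53-/- cells (adjusted p = 0.012 by limma) and by 1.03 in p53+/+ cells (adjusted p = 0.013). EPCAM fell under Nutlin-3A in p53+/+ cells, to 137 ± 5 RPKM against 169 ± 7.1 under DMSO (-0.31, adjusted p = 0.038).

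Of 17 transcription factors of the intestinal epithelium other than the CDX pair, 11 were tested. Without p53, 5 were called higher under the combination, 0 under Nutlin-3A and 4 higher under Entinostat (31.8%, 0% and 28.2% of all genes were called in either direction). In p53+/+ cells 4 were higher and 5 lower under the combination, 2 higher and 1 lower under Nutlin-3A, and 5 higher and 2 lower under Entinostat (50.0%, 17.4% and 27.5% of all genes). Their median log2 change under the combination was 0.18 in p53-/- cells and -0.02 in p53+/+ cells. ELF3, an epithelial ETS factor, averaged 18.2 ± 0.75 RPKM under Entinostat and 7.68 ± 1.5 under DMSO in p53-/- cells, and 34.6 ± 2.4 under Entinostat and 16 ± 2.7 under DMSO in p53+/+ cells (SD, n = 2 each). GATA6 rose under Entinostat by 0.72 in p53-/- cells (adjusted p = 0.0058 by limma) and by 0.91 in p53+/+ cells (adjusted p = 0.0022). CDX2 fell in the same libraries. Of these 11 factors, 2 were also called lower under Entinostat in p53+/+ cells and 5 under the combination there, and 0 under either in p53-/- cells.

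Of 18 other keratins 9 were tested, and at most 4 were called in any drug comparison with DMSO. That was the combination in p53+/+ cells, with 2 higher and 2 lower, where 50.0% of all genes were called. Under Entinostat 1 was called higher in p53-/- cells, and 1 higher and 1 lower in p53+/+ cells (28.2% and 27.5% of all genes). Medians under the combination were -0.16 in p53-/- cells and 0.21 in p53+/+ cells, and under Entinostat -0.21 and -0.68. KRT80 rose under Entinostat by 0.85 in p53-/- cells (adjusted p = 0.0072 by limma) and by 0.66 in p53+/+ cells (adjusted p = 0.023). KRT23, a neighbour of KRT20, averaged 0.164 ± 0.015 RPKM in p53-/- cells and 1.73 ± 0.07 in p53+/+ cells under DMSO (SD, n = 2 each; log2 change -1.75, adjusted p = 0.00017). KRT23 did not exceed 0.285 RPKM in any p53-/- library, so it passed the minimum mean only through the p53+/+ libraries. That call is therefore a description and supports nothing. Under Entinostat KRT23 averaged 0.733 RPKM in p53+/+ cells, below its DMSO mean there. Of 14 intestinal stem cell genes 9 were tested, with medians under the combination of 0.11 in p53-/- cells and 0.23 in p53+/+ cells. LGR5, ASCL2, OLFM4 and SMOC2 were not tested and did not exceed 0.129 RPKM. Under the combination 2 were called higher in p53-/- cells, and 3 higher and 2 lower in p53+/+ cells (31.8% and 50.0% of all genes). Under Entinostat 2 and 3 were called higher (28.2% and 27.5%), and under Nutlin-3A in p53+/+ cells 1 higher and 1 lower (17.4%). The receptor gene EPHB3 rose under Entinostat by 1.07 in p53-/- cells (adjusted p = 0.025 by limma) and by 1.47 in p53+/+ cells (adjusted p = 0.0063). Only 1 of 18 goblet, enteroendocrine and Paneth cell genes was tested, FCGBP, a mucus protein gene, which averaged 1.22 ± 0.072 RPKM under the combination and 0.296 ± 0.095 under DMSO in p53+/+ cells. Its median over the 16 libraries was 0.419 RPKM, below the minimum mean for testing. FCGBP thus passed through the libraries in which it was high, and its values are a description. Of 9 other CEACAM genes 1 was tested, CEACAM19, and it was not called in any of the 17 comparisons.

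**Figure D4:**
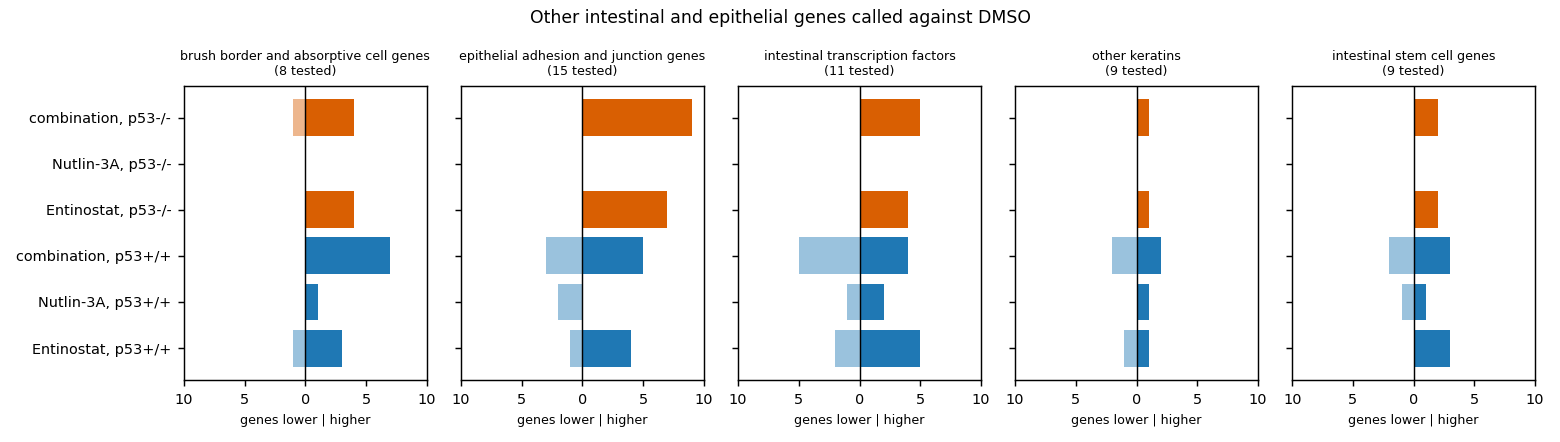
Numbers of tested genes called higher (right of 0) and lower (left of 0, paler) than DMSO in 5 lists of intestinal and epithelial genes, for each drug treatment in p53-/- cells (orange, above) and p53+/+ cells (blue, below). Nutlin-3A in p53-/- cells has no bar in any list, and 7 of 8 brush border genes were called higher under the combination in p53+/+ cells.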

How the data were processed

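RNA from 16 HCT116 libraries was measured as RPKM per gene, values that the authors computed and deposited. Alignment with Bowtie2 to hg19 and quantification with Partek are named per the submitters' processing notes. The sources used here do not give versions, filters, gene models or the use of strand in counting. The kit was stranded, per the labels' protocols. The alignment total of each library stands in the table as its own entry and was kept out of the genes.

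The 6 tested members and all other genes with a mean of at least 0.5 RPKM (12466 genes, 60.5% of the table) were fitted as log2(RPKM + 0.5), which understates the change of low genes. limma 3.58.1 in R 4.3.3, with an intensity trend, fitted 8 group means to 16 libraries with 8 residual and 4.09 prior degrees of freedom. Benjamini-Hochberg adjustment ran over all tested genes in each of 17 comparisons, and the tests are two-sided. The fit was tested on simulated data. Alternatives were pseudocounts of 0.1 and 1, no filter, a minimum mean of 1 RPKM, median of ratios scaling, quantile normalization, no intensity trend, the replicate number as a block, and leaving out each library. Where 1 library was left out, the lone sample was assumed to vary like the other groups.

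Replicate numbers come from the labels. Deviations of same-numbered libraries correlated across genes in all 28 pairs of groups (r 0.27 to 0.78, median 0.43). The replicate number was therefore fitted as a block in an alternative fit. The main calls do not use this pairing.

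The members, the gene lists and the tests were chosen with earlier results of these data known. The named list genes are called members with the largest changes, up to 4 in each list and comparison. The genes most like a member are the 3 with the highest Pearson r among those with a mean of at least 1 RPKM. CEACAM19 was named after its values were seen. Genes of the lists that had no entry in the expression table include CEACAM7, ALPI, FABP1, SLC26A3 and TFF3. Promoters came from a RefSeq table of GRCh38.p14 that held 6 of the 10 members. Some genes chosen by these rules are not reported here.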

Additional observations from a re-analysis of the deposited data

Results flagged for a closer look

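CEACAM1 responded differently in the 2 genotypes by a test of the difference itself. Its Nutlin-3A response was smaller in p53-/- than in p53+/+ cells by a log2 difference of -2.07 (adjusted p = 0.00019 by limma), with both p53-/- libraries below both p53+/+ libraries under the drug. Its combination response differed by -1.22 (adjusted p = 0.0095). CEACAM1 passed the minimum mean only through the p53+/+ groups with Nutlin-3A, so it had to differ. These tests and the separation of the libraries are descriptions and support nothing.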

How the results depend on the processing

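With no filter on mean RPKM, 1 member was called for Nutlin-3A and 1 for Entinostat against DMSO in p53+/+ cells, and 1 for the combination against Nutlin-3A in p53-/- cells. With a minimum mean of 1 RPKM, which leaves 4 members and removes CEACAM1 and KRT20, the counts were 1 for Nutlin-3A in p53+/+ cells, 3 for p53-/- against p53+/+ under the combination, 0 and 0 for the genotype differences in response to Nutlin-3A and the combination, and 2 for the combination against Nutlin-3A in p53+/+ cells. Quantile normalization gave 3 for p53-/- against p53+/+ under the combination and 1 for the combination against Nutlin-3A in p53-/- cells, and turned KRT20 under the combination in p53+/+ cells to -0.09. The cause was not tested. With no filter the adjustment ran over 20612 genes. The shares of all genes called with no filter, with a minimum mean of 1 RPKM and under quantile normalization are not given here. The counts of these 3 fits therefore do not show if a change was particular to the members. The replicate block, whose shares of all genes called are given above, gave 4 for Entinostat in p53+/+ cells, 2 for Entinostat in p53-/- cells, 1 for p53-/- against p53+/+ under Entinostat, 2 and 3 for the genotype differences in response to Nutlin-3A and the combination, and 4 for the combination against Nutlin-3A in p53-/- cells. Beside the calls given above, it changed no other call of a member.

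Leaving out single libraries lowered the number of members called for Nutlin-3A and for Entinostat against DMSO in p53+/+ cells. Fewer of all tested genes were called there too when replicate 1 of either compared group was left out. The number of members also fell for the combination against Entinostat in p53+/+ cells and for p53-/- against p53+/+ under the combination. In some of these fits it fell for p53-/- against p53+/+ under Nutlin-3A and for the combination against Nutlin-3A in p53-/- cells. It rose in some for the genotype difference in combination response. KRT19 under Nutlin-3A in p53-/- cells ran from -0.51 to 0.13. The genotype difference of CDX2 in Entinostat response ran from -0.04 to 0.13. With 2 replicates a group, wide intervals such as those of KRT19 limit what could be called, and RPKM without counts leaves the sampling error of the low CEACAM genes unknown. The other scaling shifted the median of all genes by under 0.1 in each comparison.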
